A study of Sus scrofa with 4 samples.

Results

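The genes described here belong to Wnt signalling: secreted antagonists (DKK2, DKK3, SFRP1, SFRP2 and WIF1), receptors (FZD1 and LRP6) and effectors inside the cell (CTNNB1, AXIN2 and TCF7L2). They were chosen by symbol, and each was read from those probesets, the sets of oligonucleotides that report 1 transcript on the array, that the platform annotation assigns to that symbol alone. Of the 10 genes, 6 were matched, through 14 probesets, among 6765 genes that could be named in this way. SFRP2, WIF1, FZD1 and AXIN2 matched no probeset by symbol and were not analysed here. Where a gene had several probesets, the brightest by mean log2 signal over the arrays stands for it, and for these 6 genes the others are given beside it.

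Wnt proteins are secreted lipid-modified ligands that bind a Frizzled receptor together with the co-receptor LRP5 or LRP6. In the absence of a ligand, beta-catenin, the product of CTNNB1, is marked for destruction by a cytoplasmic complex that contains AXIN proteins. With a ligand it accumulates, enters the nucleus and acts with TCF and LEF factors on target genes. Secreted frizzled-related proteins such as SFRP1 bind the ligands, Dickkopf proteins such as DKK2 bind the co-receptor, and in skin the pathway is known for its part in hair follicle formation, dermal fibroblast identity and scarring.

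The RNA came from confluent cultures of dermal fibroblasts of 2 Duroc pigs, a breed used as a model of cutaneous fibrosis, biopsied 20 weeks after shallow and deep wounds were made on the back. The labels name no drug, transgene or other agent, and set the groups apart by wound depth alone. All cells grew in the same serum-containing medium. Each depth had 2 arrays, 1 from each pig, and no unwounded skin was analysed here. Which shallow and deep arrays share a pig follows from the partner numbers in the sample titles, read in the order in which the samples are listed. Values are MAS5 signals in linear intensity units, means are given ± SD over n = 2 arrays, and all differences are deep minus shallow.

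Fibroblast identity and array quality were read first. All 11 fibroblast markers on the array, of 12 listed, were above every control for absent transcripts on all 4 arrays. The highest of these controls read 14.8 and 13.6 in the shallow cultures of pig 1 and pig 2, and 21.8 and 30.9 in the deep cultures. The summed signal of 8 epithelial genes was 5760 on the shallow array of pig 1 and lay between 169 and 321 on the other 3 arrays. That of 3 genes of dividing cells was higher in shallow in both pigs, at 8313 and 2452 against 753 and 926 in deep, and 1 of them, PCLAF, fell past the threshold (adjusted p = 0.0376 in limma). That of 5 smooth muscle and pericyte genes was higher in deep in both pigs, at 4758 and 3381 against 702 and 1167. Most of it was 1 gene, ACTG2, which read 492 and 717 in shallow and 4269 and 2914 in deep. ACTG2 rose past the threshold (adjusted p = 0.0351 in limma). DES and CNN1 were also higher in deep in both pigs, while RGS5 and MCAM were higher in pig 1 and lower in pig 2. DES lay near the absent controls, at 15.6 and 9.67 in shallow and 25.6 and 55.9 in deep, and was too dim to be tested. The actin 3' to 5' ratio, which grows when RNA or its copies are incomplete, was 1.96 and 2.41 in shallow and 3.28 and 6.10 in deep. The same ratio for gapdh spread less, at 1.53 and 1.67 in shallow and 1.75 and 2.06 in deep. In cultures read as a whole, fewer cells of a kind and less RNA per cell cannot be told apart.

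SFRP1 and DKK3 read higher in fibroblasts of deep wounds than of shallow wounds in both pigs, by 1.68-fold and 1.96-fold on average. DKK2 read lower in both, by 1.69-fold. The co-receptor LRP6 and the factor TCF7L2 differed by smaller amounts. For CTNNB1 no direction could be given, with a log2 difference of -0.01 by its brightest probeset and disagreement among its other probesets. None of the 6 genes passed an adjusted p of 0.05 in limma (0 of 6), against 0.34% of 14399 probesets tested. At an unadjusted p under 0.05, SFRP1 and DKK3 were higher and DKK2 lower, 3 of 6 against 13.9% of all probesets. Of the 5272 named genes past the filter, each read by its brightest probeset, 390 were higher and 425 lower at that level. In 4 of the 6 (SFRP1, DKK3, LRP6 and TCF7L2) both deep arrays were above both shallow arrays, as in 23.2% of all probesets, and in 1 both were below, as in 25.5%. The depths thus did not overlap in 5 of the 6, and in 48.7% of all probesets. Of the 5272 genes, both deep arrays were above both shallow arrays in 1252 and below in 1497. The median difference of the 6 was 0.42 on the log2 scale, beside -0.02 over all probesets tested and -0.04 over the 5272 genes. The members were chosen with earlier results of these data known, so these shares only describe them.

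**Figure D1:**
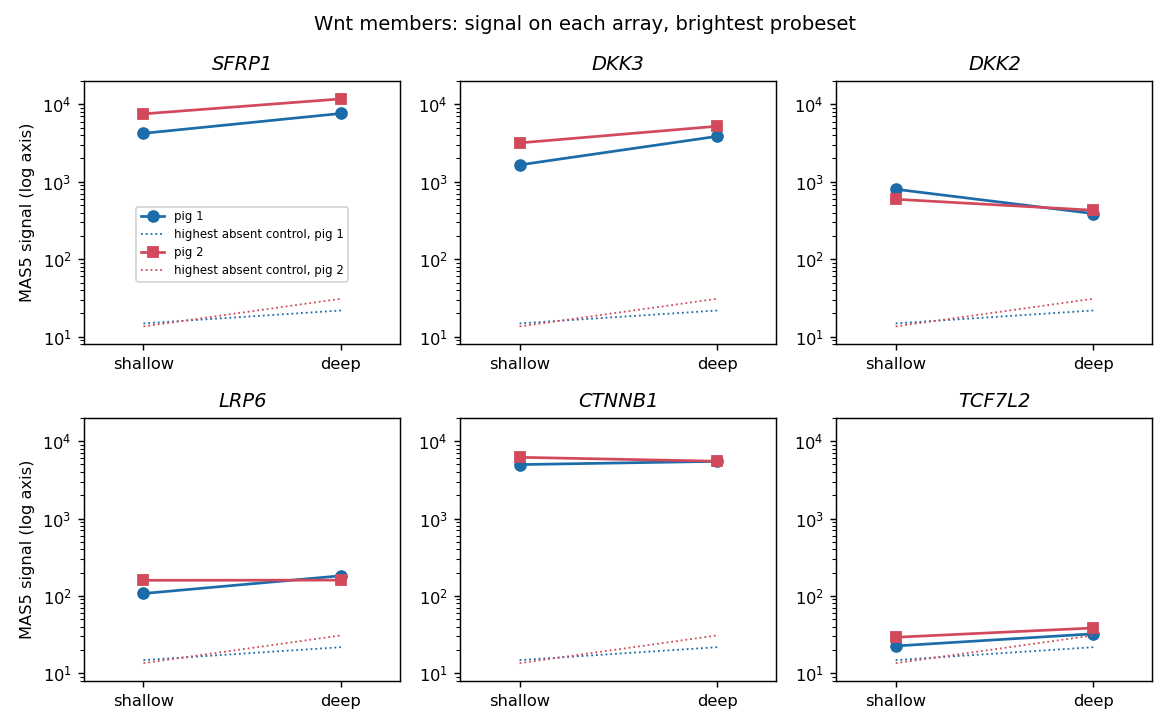
MAS5 signal (log axis) of the 6 genes on each array, by the brightest probeset, with a line joining the shallow and deep arrays of each pig and dotted lines for the highest control for an absent transcript. SFRP1 and DKK3 slope upward and DKK2 downward in both pigs, CTNNB1 is level, and TCF7L2 lies close to the controls at 22.6 to 38.6.

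Of the antagonists, SFRP1 binds Wnt ligands outside the cell. It read 4225 and 7537 in the shallow cultures of pig 1 and pig 2, and 7631 and 11760 in the deep cultures. The groups did not overlap, but shallow pig 2 and deep pig 1 were nearly level, and at each depth pig 2 was higher. The mean was 5881 ± 2342 in shallow and 9696 ± 2920 in deep, a difference of 0.75 ± 0.29 on the log2 scale (SE; limma, unadjusted p = 0.0329, adjusted p = 0.309), positive in 2 of 2 pigs. The difference was 0.85 in pig 1 and 0.64 in pig 2. The second SFRP1 probeset gave nearly the same mean difference, 0.72 ± 0.31, with values of 2032 and 5168 in shallow and 4392 and 6482 in deep. Its groups overlapped, since shallow pig 2 was above deep pig 1.

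DKK3 is the divergent member of the Dickkopf family, whose effect on Wnt signalling varies with the cell. It read 1653 and 3178 in the shallow cultures of pig 1 and pig 2, and 3864 and 5217 in the deep cultures. Both deep arrays were above both shallow arrays, and pig 2 was again the higher at each depth. The mean was 2415 ± 1078 in shallow and 4540 ± 957 in deep, a difference of 0.97 ± 0.29 on the log2 scale (SE; limma, unadjusted p = 0.00955, adjusted p = 0.192). It was 1.22 in pig 1 and 0.72 in pig 2. DKK3 had a single named probeset, so no second reading of it was available.

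The order of the arrays was the same for SFRP1 and DKK3, lowest on the shallow array of pig 1, then shallow pig 2, deep pig 1 and deep pig 2. The actin 3' to 5' ratio and the 28S ribosomal RNA signal followed that order too, the latter reading 1302, 1689, 2752 and 6096. So did the gapdh ratio and the mean of the hybridization control probesets, the latter reading 2754, 3169, 3808 and 8606. With the actin ratio as a covariate in place of the pig, the differences were 0.19 for DKK3 and -0.20 for SFRP1, and 0 probesets of 14399 passed in that limma fit, with 283 at an unadjusted p under 0.05. The slope on the ratio there comes only from the differences between the pigs at each depth. Pig 2 was the higher at both depths for SFRP1 (by 0.84 in shallow and 0.62 in deep) and for DKK3 (by 0.94 and 0.43). The changed values therefore do not separate depth from RNA quality. The summed signal of the 11 fibroblast markers ran in the same order, at 39340, 48870, 66910 and 98740. The shallow array of pig 1, where both genes read lowest, is the array with the epithelial signal, and without it the differences were 0.50 for DKK3 and 0.33 for SFRP1. Without the shallow array of pig 2 they were 1.44 and 1.17. Under quantile normalization SFRP1 differed by 0.24 and DKK3 by 0.81. The smooth muscle and pericyte sum, most of it ACTG2, was likewise higher in deep in both pigs. The part of RNA quality, of epithelial cells and of the cells behind the smooth muscle and pericyte signal in these differences was not tested. These genes do not settle which kind of cell carries that signal.

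DKK2, a Dickkopf protein that binds LRP6 and can block or, in some cells, stimulate signalling, went the other way by its brightest probeset. It read 801 and 596 in the shallow cultures of pig 1 and pig 2, and 389 and 429 in the deep cultures. Both deep arrays were below both shallow arrays, and the deep pair lay close together. The summed signal of the dividing-cell genes ran in the same order, highest on the shallow array of pig 1 and lowest on the deep array of pig 1, and its part in the difference was not tested. The mean was 698 ± 145.5 in shallow and 409 ± 28.55 in deep, a difference of -0.76 ± 0.29 on the log2 scale (SE; limma, unadjusted p = 0.0304, adjusted p = 0.3), negative in 2 of 2 pigs. It was -1.04 in pig 1 and -0.47 in pig 2. With the actin ratio as covariate in place of the pig, the difference was -0.76. In that fit the slope on the ratio comes only from the differences between the pigs at each depth. For DKK2 these had opposite signs, -0.43 in shallow and 0.14 in deep (pig 2 minus pig 1). The unchanged value therefore does not separate depth from RNA quality, whose part was not tested. Leaving out the shallow array of pig 1 gave -0.54. Leaving out that of pig 2 gave -0.97.

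The second DKK2 probeset gave the opposite direction at signals close to background. In shallow it read 6.96 and 1.25, below the absent controls on both arrays, and in deep it read 26.02 and 45.3. The deep readings were 1.19 and 1.47 times the highest absent control of the same array. With each array's highest absent control standing in for the shallow readings, deep was 2.42-fold higher over both pigs. In pig 1 it was 1.75-fold and in pig 2 3.34-fold. These are not lower bounds, since the deep readings may themselves be largely background. The absent controls also read higher in deep, and against its own controls the deep mean was 1.32-fold. This probeset fell below the filter on dim signal and was not tested. The probesets of DKK2 therefore disagree, and which transcripts each one reads is not given in the sources used here.

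Among the receptors only LRP6 was measured. This co-receptor takes up the signal when Wnt joins it to a Frizzled protein, and it is also the binding site of DKK2. Its brightest probeset read 108 and 159 in the shallow cultures of pig 1 and pig 2, and 182 and 160.1 in the deep cultures. The deep array of pig 2 exceeded the shallow array of the same pig by less than 1 unit, so that the groups were separate in name while the difference in pig 2 was 0.0083, against 0.76 in pig 1. The mean log2 difference was 0.38 ± 0.34 (SE; limma, adjusted p = 0.682), with a 95% interval of -0.41 to 1.18, and 0.10 without the shallow array of pig 1. The second LRP6 probeset read 52.4 and 85.4 in shallow and 97.3 and 104 in deep, a difference of 0.59 ± 0.38.

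CTNNB1 encodes beta-catenin, which carries the signal to the nucleus and also joins cadherins to the cytoskeleton at cell contacts. The brightest of its 5 probesets read 4966 and 6168 in the shallow cultures of pig 1 and pig 2, and 5470 and 5490 in the deep cultures. The deep values lay between the shallow values. The mean was 5567 ± 850 in shallow and 5480 ± 13.9 in deep, a difference of -0.01 ± 0.29 on the log2 scale (SE; limma, adjusted p = 0.988). Its 95% interval of -0.68 to 0.65 leaves room for a difference in either direction. Quantile normalization gave -0.38 and centring each array on its median gave 0.06, so no direction can be given.

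The other 4 CTNNB1 probesets differed among themselves, by -0.36 to 0.64 on the log2 scale. The third in brightness read 889 and 1029 in shallow and 1209 and 1828 in deep, higher in both pigs (0.64 ± 0.27, limma, unadjusted p = 0.0473, adjusted p = 0.354). The dimmest read 419 and 323 in shallow and 292 and 279 in deep, lower in both pigs (-0.36 ± 0.29). The second and the fourth had opposite signs in the pigs. Across its probesets CTNNB1 thus showed no shared direction.

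**Figure D2:**
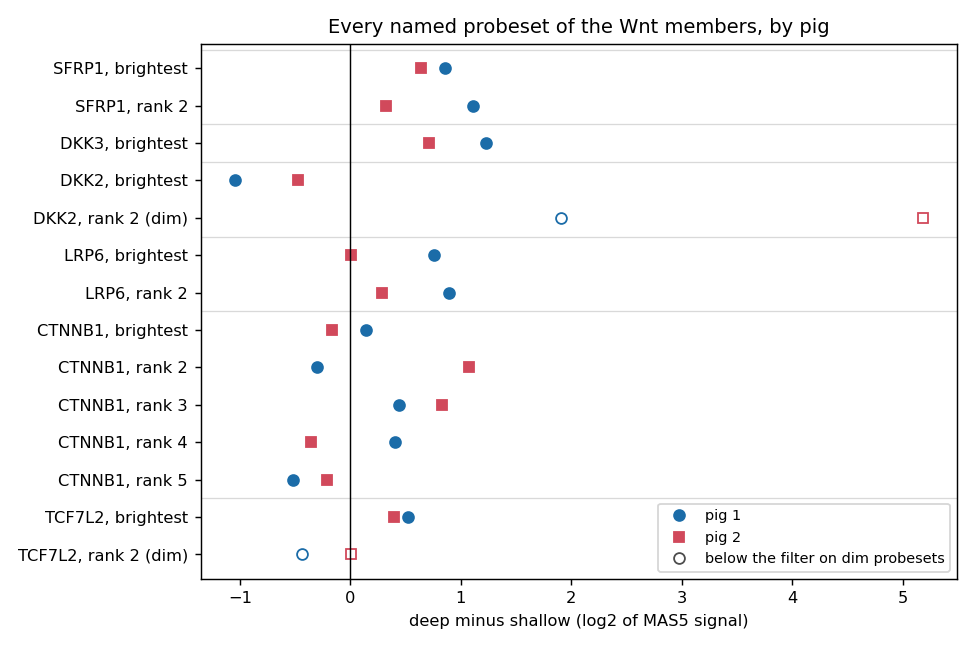
Deep minus shallow difference, on the log2 scale of MAS5 signal, in pig 1 (circles) and pig 2 (squares) for each of the 14 probesets, with open symbols for the 2 below the filter on dim signal. The probesets of SFRP1 and of LRP6 lie at or to the right of 0 in both pigs, those of DKK2 lie on opposite sides, and those of CTNNB1 lie on both.

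TCF7L2, a nuclear partner of beta-catenin, was just above background. It read 22.6 and 29.3 in the shallow cultures of pig 1 and pig 2, and 32.4 and 38.6 in the deep cultures, above the highest absent control on each array. On the deep array of pig 2 that control read 30.9. The groups did not overlap, with means of 25.95 ± 4.72 and 35.5 ± 4.35 and a difference of 0.46 ± 0.47 on the log2 scale (SE; limma, adjusted p = 0.727). The arrays stood in the same order as the actin ratio, and with that ratio as covariate the difference was 0.065. The absent controls were themselves higher on the deep arrays. The second TCF7L2 probeset, below the filter and above the controls on 2 of 4 arrays, read 21.7 and 25.8 in shallow and 16.01 and 25.9 in deep. No other gene of the 6 was near background by its brightest probeset.

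**Figure D3:**
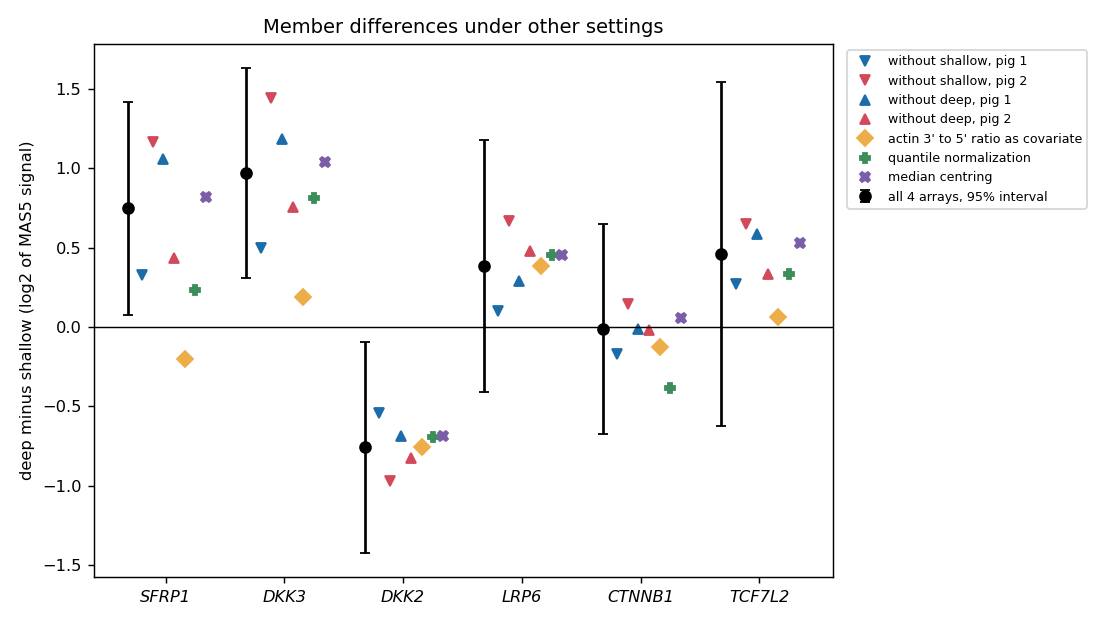
Deep minus shallow difference on the log2 scale of MAS5 signal for each gene by its brightest probeset, with all arrays (black, 95% interval of the fit) and with 1 array left out, the actin ratio as covariate, quantile normalization or median centring. DKK2 stays below 0 and DKK3 above 0 at each of these points, while SFRP1 passes below 0 at -0.20 with the actin ratio.

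The genes whose array-to-array pattern lay closest were found for DKK3 and DKK2, the pair with the largest absolute differences. Likeness was the root mean square difference of log2 signals, each centred on the gene's own mean, over the 4 arrays. For DKK3 the closest were AEBP1 at 0.06, which read 1851 and 3250 in shallow and 4078 and 5252 in deep, POLD4 at 0.06 and the locus LOC100524254 at 0.07. For DKK2 they were WDR46 at 0.03, which read 168 and 133 in shallow and 82.1 and 92.5 in deep, TPRKB at 0.04 and MRPL58 at 0.04. With 4 arrays such likeness is common. Within 0.2 of DKK3 there were 99 of 5271 genes, and within 0.2 of DKK2 there were 414.

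The wider pathway was read from a list of 137 further genes, of which 40 were on the array by symbol and 31 were past the filter on dim signal. None of the 31 passed an adjusted p of 0.05 in limma (0 of 31), and at an unadjusted p under 0.05 there were 2 higher and 3 lower. Over all probesets the shares were 0.34% by adjusted p and 13.9% by unadjusted p, so that 5 of 31 is near the share of all. In both pigs 15 were higher and 7 lower, against 29.8% and 31.6% of all probesets, and 9 had opposite signs. Of the 5272 named genes by brightest probeset, 1578 were higher and 1795 lower in both pigs. The median difference of the 31 was 0.21.

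Ligands and their release could be seen in few genes. The sole Wnt ligand on the array by symbol was WNT10B, named for that reason after its values were seen, with 17.4 and 13.9 in shallow and 8.43 and 35.8 in deep, below the filter. WLS, which carries Wnt proteins to the cell surface, read 2011 and 2196 in shallow and 2722 and 3367 in deep (0.53 ± 0.27, adjusted p = 0.442 in limma). Both deep arrays were above both shallow arrays, and fitting the actin ratio as covariate left a difference of 0.16. SULF2, a sulfatase that edits the heparan sulfate to which Wnt proteins bind, differed by 0.22 ± 0.38. Among other secreted or membrane antagonists APCDD1 read 25.2 and 23.7 in shallow and 41.5 and 36.7 in deep (0.67 ± 0.47, adjusted p = 0.571 in limma). DKK1, also named after its values were seen, was below the filter, at 4.41 and 14.2 in shallow and 6.94 and 11.7 in deep.

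Of 4 further Frizzled receptors, FZD6 and FZD5 had the largest differences. FZD6 read 259 on the shallow array of pig 1, the array with the epithelial signal, and 15.3 to 29.9 on the other arrays. Its difference of -1.55 ± 0.71 (adjusted p = 0.393 in limma) was 0.50 without that array. FZD5 read 87.9 and 51.9 in shallow and 85.4 and 141 in deep, with differences of -0.04 in pig 1 and 1.44 in pig 2. Its mean difference of 0.70 was 0.32 when shallow pig 2 was left out, 0.34 when deep pig 2 was left out and 0.20 with the actin ratio fitted as covariate. The cadherin CDH1, a partner of beta-catenin at epithelial junctions and itself 1 of the 8 epithelial genes, read 1084 on the shallow array of pig 1 and was below the absent controls on the other 3. Vinculin, VCL, which links junctions and focal adhesions to actin, read 5769 and 7552 in shallow and 9071 and 10052 in deep (0.53 ± 0.29), and -0.0023 under quantile normalization. With the actin ratio as covariate its difference was 0.24. The second VCL probeset differed by 0.99 in pig 1 and -0.37 in pig 2.

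Inside the cell, TCF7L1 had the largest difference toward deep of the list. TCF7L1 is a TCF factor that acts mostly as a repressor of Wnt targets. It read 56.1 and 65.5 in the shallow cultures of pig 1 and pig 2, and 163 and 230 in the deep cultures. The groups were well apart, and both pigs showed a similar difference, 1.54 and 1.81. The mean difference was 1.67 ± 0.34 (SE; limma, unadjusted p = 0.00126, adjusted p = 0.0898). The arrays stood in the order of the actin ratio, and with that ratio as covariate the difference was 1.07. Adjusted p in limma was 0.296 with no filter on dim probesets, 0.176 with no pig block and 0.162 with no trend. It was past the threshold with the filter at the 60th percentile (adjusted p = 0.0354 in limma), where fewer probesets were tested and the moderation was fitted again on them. With 1 array left out the TCF7L1 difference ran from 1.42 to 1.92. The corepressor CTBP2 read 1081 and 1060 in shallow and 795 and 591 in deep (-0.64 ± 0.27, adjusted p = 0.35 in limma). Its second probeset read 546 and 550 in shallow and 528 and 393 in deep, a smaller difference of -0.27 ± 0.28. RAC1, a small GTPase of the branch of Wnt signalling that does not use beta-catenin, read 3166 and 2493 in shallow and 1829 and 1652 in deep (-0.69 ± 0.27, adjusted p = 0.308 in limma). CAMK2D, a calcium-dependent kinase, differed by 0.39 ± 0.28. With the actin ratio as covariate CTBP2 differed by -0.18 and RAC1 by -0.42.

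**Figure D4:**
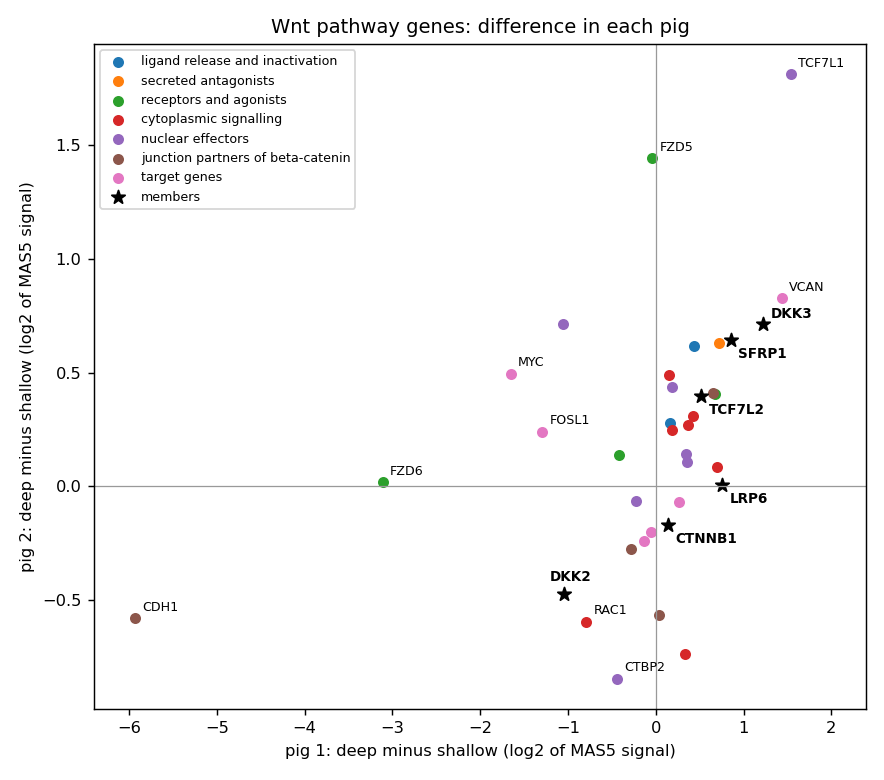
Deep minus shallow difference on the log2 scale of MAS5 signal in pig 1 (horizontal) and pig 2 (vertical) for the 31 further pathway genes past the filter, coloured by role, and the 6 members (stars). TCF7L1 stands at the upper right with 1.54 and 1.81, DKK3, SFRP1 and VCAN are higher in both pigs, DKK2, RAC1 and CTBP2 are lower in both, and FZD6 and MYC lie to the left through pig 1.

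Known target genes of the pathway showed no shared sign. Of 9 on the array 6 were past the filter, with 1 higher in both pigs, 2 lower in both and 3 of opposite sign, and a median difference of -0.16. VCAN, a large matrix proteoglycan, read 86.8 and 139 in shallow and 235 and 247 in deep (1.13 ± 0.33, unadjusted p = 0.00921 and adjusted p = 0.191 in limma). Without the shallow array of pig 1 the difference was 0.79, and without that of pig 2 it was 1.47. Its next 2 probesets in brightness differed by 0.84 and 1.07. MYC, a growth-promoting transcription factor, read 896 on the shallow array of pig 1 and 213 to 300.3 on the others. Its difference was -1.65 in pig 1 and 0.50 in pig 2, and 0.46 without the shallow array of pig 1.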

How the data were processed

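Total RNA from cultured fibroblasts was hybridized to a porcine Affymetrix array. The deposited values are MAS5 signal intensities, 1 per probeset and array, which the authors made in MAS5 (GCOS 1.0), per the submitters' processing notes. Their mean without the top and bottom 2% was 250.1 on each array. The scaling target and scan settings are not given in the sources used here. No detection calls were in the table used.

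The 124 control probesets were left out, which left 23999. Signals under 1 were set to 1 and taken to log2. The dimmest 40% by mean, below a signal of 27.1, were dropped and 14399 remained. The comparison used limma 3.58.1 (R 4.3.3; lmFit, then eBayes with a trend), blocked on pig, with Benjamini-Hochberg adjustment over all 14399. The fit has 1 residual degree of freedom, to which moderation added 6.88. It was tested on simulated data. The pairing comes from the animals, and deviations of same-pig arrays correlated at -0.01. Nothing says whether a pig gave more than 1 culture, so p-values concern these 4 arrays, whose number limits the precision. With the pig as block, they rest on how far the differences of the 2 pigs disagree. Most of their degrees of freedom are borrowed from other probesets.

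Background was the highest of 23 control probesets for absent transcripts (Trpn and Tag). The rule set earlier also counted the bacterial Dap, Lys, Phe and Thr probesets. The highest of these read 903 to 1108 on the arrays and the lowest 26.9 to 39.4, above the highest Trpn or Tag control of the same array, and they were set aside after their values were seen. The members and lists were chosen with earlier results of these data known. The text names all members on the array, and in each role of the wider list the 2 genes past the filter with the largest absolute difference, with WNT10B and DKK1 added after their values were seen. It also names for 2 members the 3 genes closest in pattern. No sequence or genome coordinate was used. Alternatives covered the block, pairing, normalization, floor, filter, trend, actin ratio, probeset and each array left out.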

Additional observations from a re-analysis of the deposited data

How the results depend on the processing

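The count of probesets past the threshold, 49 (34 higher and 15 lower), moved with each choice. It was 0 with no replicate block (smallest adjusted p = 0.0597 in limma, 1885 at an unadjusted p under 0.05), 202 with the crossed pairing as block, 5 (5 higher and 0 lower) with median centring, 96 with quantile normalization, 100 with log2(value + 16), 3 with values under 32 set to 32, 0 without the filter, 217 with the filter at the 60th percentile, 3 without the trend and 0 with the actin ratio. With 1 array left out it ran from 0 to 1597. Those fits have no pig block, and the lone array at a depth is assumed to vary like the other group.

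No member was past the threshold under any setting except with 1 array left out, where the count ran from 0 to 2 (DKK2 and DKK3, without the shallow array of pig 2). For the wider list the count was 1 with the filter at the 60th percentile and ran from 0 to 6 with 1 array left out. With the pig block dropped no probeset passed, so no member or listed gene could. With the pairing crossed 202 of 14399 probesets passed, among them 0 members and 0 genes of the wider list. DKK3 and LRP6 kept their sign under every alternative, from 0.19 to 1.44 and from 0.10 to 0.67.

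Signs turned as follows. With the next brightest probeset DKK2 was 3.54, CTNNB1 0.39 and TCF7L2 -0.22. The DKK2 value sets deep readings close to the absent controls against shallow readings below them, so its size cannot be read. With the actin ratio SFRP1 was -0.20, SULF2 -0.047, FZD6 0.88, CDH1 0.44 and MYC 0.061. That covariate also brought WLS to 0.16, FZD5 to 0.20, VCL to 0.24, CTBP2 to -0.18, RAC1 to -0.42 and TCF7L1 to 1.07 without turning the sign. Its slope rests on pig differences at each depth, so no value from that fit separates depth from RNA quality. CTNNB1 was 0.056 with median centring, and VCL -0.0023 with quantile normalization. With 1 array left out CTNNB1 ran from -0.17 to 0.14, FZD6 from -3.59 to 0.50, CDH1 from -6.59 to 0.075 and MYC from -1.62 to 0.46. CDH1 was below the absent controls on 3 arrays and FZD6 on 1, so the size of their differences cannot be read as exact. The cause was not tested. With the bacterial controls as background, 3 of 6 members, in place of 6, were above it on every array. TCF7L2 has no value with the filter at the 60th percentile, and SULF2, APCDD1, FZD6, FZD5 and CDH1 have none there either.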
